A study of Mus musculus with 19 samples.

Results

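The genes described here are the Wnt ligands, their receptors and their secreted inhibitors, measured by RNA-seq in mouse embryonic stem cells with and without the RNA-binding proteins Trim71 and Lin28a. Members were taken by symbol: every numbered Wnt, Fzd, Dkk or Sfrp gene in the table, plus Axin2, Tcf7, Tcf7l1, Tcf7l2, Lrp5, Lrp6, Sp5, Lgr5 and Porcn. They came to 40 of the 21685 genes listed. A gene counted as expressed, and was tested, when its value reached log2(10), that is 10 normalised units, in at least 4 libraries, which 29 of the 40 members did. Of these 29, 24 reached that minimum in all 18 libraries used. The exceptions were the low ligands Wnt3 (11 libraries), Wnt3a and Wnt8a (17 each) and Wnt5b and Wnt6 (9 each). For Wnt3, Wnt5b and Wnt6 every Lin28a-intact library reached the minimum, while most Lin28a-null libraries did not. Their Lin28a-null libraries alone would not have met the rule.

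The cells were male C57BL/6 stem cells, cultured with serum plus leukaemia inhibitory factor and enriched on magnetic columns for SSEA-1, a surface antigen of pluripotent cells. The groups are written with the Trim71 state first and the Lin28a state second. WT-WT (Trim fl/fl, Lin28a fl/fl) had 4 libraries, KO-WT (Trim -/-, Lin28a fl/fl) had 4, WT-KO (Trim fl/fl, Lin28a -/-) had 5 and KO-KO (Trim -/-, Lin28a -/-) had 5. Trim71 was deleted with 500 nM 4-hydroxytamoxifen for 2 days, followed by at least 7 days of culture. Whether the Trim71-intact cells also received tamoxifen, and how Lin28a was removed, is not stated in the sources used here. The Lin28a-intact libraries came from clones 1 and E3 and the Lin28a-null libraries from clones 1-4 and C1, so that clone and Lin28a genotype cannot be told apart. Each group holds both of its clones, so the Trim71 states share their clones. The main fit had no clone term, and KO-WT held more E3 libraries than WT-WT. A clone difference can therefore enter the Trim71 comparison with Lin28a intact. One further KO-WT library was left out, since each of its values matched the average of the 4 kept KO-WT libraries within 1.5e-08. Nothing in the labels states that libraries of 1 group came from separate cultures, so p-values measure the spread between these libraries, which may be technical. The deposited values are on a log2 scale, and read depth is unknown.

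Trim71 averaged 10.21 in WT-WT, 8.89 in KO-WT, 10.65 in WT-KO and 9.28 in KO-KO, and Lin28a averaged 10.13, 9.84, 8.47 and 8.28 in the same order. Both targeted genes were lower in the groups labelled null for them and neither was at the floor of the table. The 8 stem cell markers, which include Pou5f1 and Sox2, were above the minimum in every library. Their summed level, in which Dppa5a was the largest part, lay between 36240 and 38054 normalised units in WT-WT and between 44669 and 50550 in WT-KO.

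Wnt proteins are secreted lipid-modified signals. Porcn attaches the lipid, Wls carries the protein out of the cell, and Frizzled receptors with the co-receptor Lrp5 or Lrp6 receive it. Binding stops the destruction of beta-catenin, which then enters the nucleus and acts through Tcf7, Tcf7l1, Tcf7l2 or Lef1. Sfrp proteins bind and sequester Wnts, and Dkk1 blocks the co-receptors. In mouse embryonic stem cells this signal supports self-renewal, and Tcf7l1 is the main repressor that it relieves. Lin28a blocks maturation of the let-7 microRNAs, and Trim71 is a stem cell RNA-binding protein whose own messenger RNA is a let-7 target.

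Since let-7 acts through its seed, the sequences of the family and of the matching sites in members are shown first. The 8 mature let-7 5p microRNAs in the RefSeq table share 1 seed, bases 2 to 8, given in capitals. The sequences below differ outside it.
mmu-let-7a-5p: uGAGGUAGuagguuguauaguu
mmu-let-7d-5p: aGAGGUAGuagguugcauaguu
mmu-let-7e-5p: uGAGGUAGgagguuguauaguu
mmu-let-7g-5p: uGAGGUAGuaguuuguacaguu

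The complement of that seed, CTACCTC, was searched on the sense strand of the 3′ UTR of each gene's longest coding transcript in GENCODE M21 (build GRCm38). It was found in 6 of 29 tested members (20.7%) and in 1324 of the 12504 tested genes with a 3′ UTR (10.6%). The members' UTRs were also longer, with a median of 1634 bases against 1129 over those genes. The search was chosen with results of these data known and is given as a description. The 30 bases around each match follow, with the match in capitals; positions of the windows are in GRCm38.
Dkk3, chr7:112117727-112117756, minus strand: cctgtgtttcagctcCTACCTCactgtcag
Fzd3, chr14:65200865-65200894, minus strand: gaatatctcctctacCTACCTCacaaagtt
Fzd4, chr7:89412688-89412717, plus strand: acttctgagtttcttCTACCTCacagagat
Tcf7l1, chr6:72626993-72627022, minus strand: gcgggagatatctctCTACCTCttctcttc
Wnt3a, chr11:59249327-59249356, minus strand: tttgggccggaagtcCTACCTCaatggctt
Wnt9a, chr11:59333405-59333434, plus strand: cagcctgtgatttctCTACCTCaactgtgt
let-7 levels themselves were not analysed here.

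**Figure D1:**
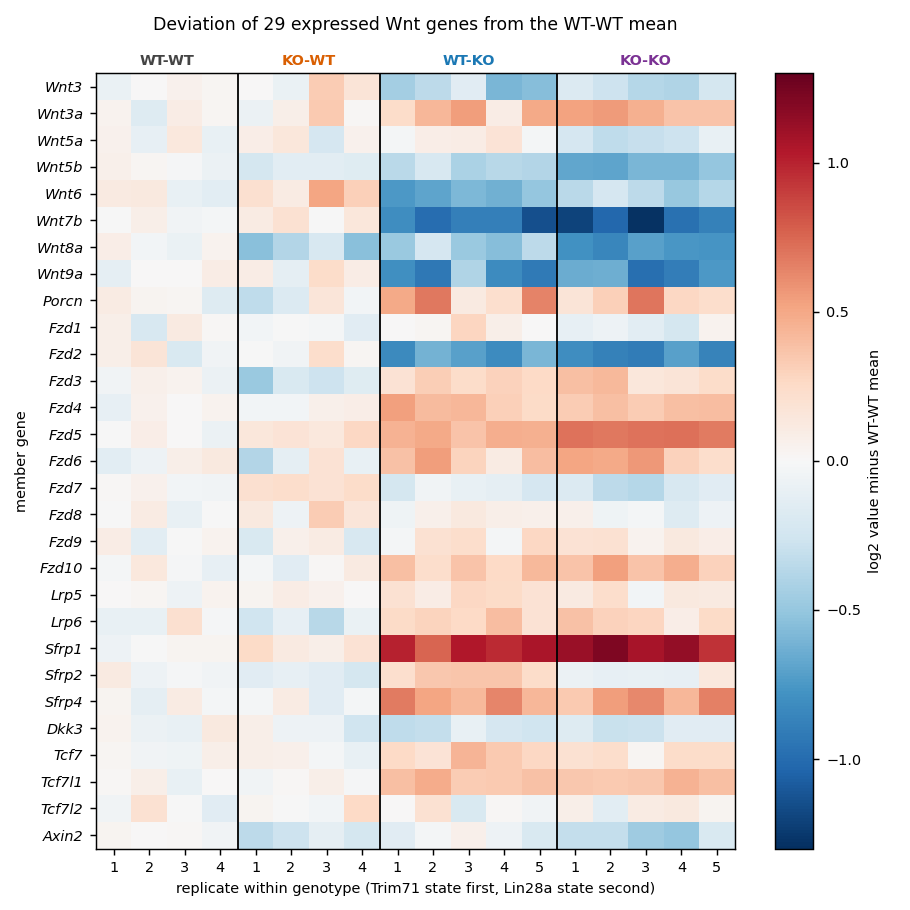
Rows are the 29 expressed members and columns the 18 libraries by genotype; colour gives the log2 value minus the WT-WT mean of that gene (red higher, blue lower). The Lin28a-null columns on the right differ most: red for Sfrp1, Sfrp4 and several Frizzled genes, blue for Wnt7b, Wnt9a, Wnt6 and Fzd2.

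Lin28a loss was examined first by setting WT-KO against WT-WT, where Trim71 is intact, and then KO-KO against KO-WT, where it is absent. In cells without Lin28a most expressed ligands were lower, while most Frizzled receptors that changed, the co-receptor Lrp6 and the inhibitors Sfrp1 and Sfrp4 were higher. The lower ligands include Wnt3, Wnt5b and Wnt6, which counted as expressed through the Lin28a-intact libraries, where they were high. The minimum thus favours lower calls among ligands this low. With Trim71 intact, 22 of 29 tested members passed an adjusted p of 0.05 in limma, against 42.4% of all 14988 genes tested, and 14 of them were higher (20.3% of all genes) and 8 lower (22.0%). Without Trim71, 21 passed, against 42.8% of all genes, 12 higher (20.8% of all) and 9 lower (22.0%). The median difference over the tested members was 0.13 with Trim71 intact and 0.063 without it, beside -0.0077 and -0.00082 over all genes tested. The 19 members called in both Trim71 states had the same sign in both, 12 higher and 7 lower. The share of all genes called in both with the same sign was not counted. The count of 19 is therefore not shown to be particular to these members. The 2 comparisons use separate libraries but the same clones, so a clone difference would appear in both.

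Among ligands, Wnt7b, a Wnt that can signal through beta-catenin, was the most abundant. It had log2 values of 7.40, 7.48, 7.36 and 7.38 in WT-WT, 7.52, 7.60, 7.40 and 7.55 in KO-WT, 6.60, 6.42, 6.51, 6.52 and 6.26 in WT-KO, and 6.20, 6.38, 6.12, 6.43 and 6.53 in KO-KO. Every Lin28a-null library lay below every Lin28a-intact one, and the 2 Trim71 states overlapped. The difference for Lin28a loss was -0.94 ± 0.0912 (SE) with Trim71 intact (limma adjusted p = 7.75e-07) and -1.19 ± 0.0912 without Trim71 (adjusted p = 5.32e-08). Wnt9a read 5.30, 5.42, 5.42 and 5.51 in WT-WT, 5.51, 5.30, 5.65 and 5.51 in KO-WT, 4.62, 4.48, 5.02, 4.59 and 4.49 in WT-KO, and 4.77, 4.77, 4.43, 4.51 and 4.66 in KO-KO. Its Lin28a-null libraries were again all below the intact ones, with replicate 3 of WT-KO the nearest to them. Wnt9a fell by 0.77 (SE 0.118, adjusted p = 8.23e-05) and by 0.86 (adjusted p = 2.75e-05) with Trim71 intact and without it.

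Wnt6 stood close to the detection minimum: 3.74, 3.75, 3.53 and 3.49 in WT-WT, 3.84, 3.73, 4.14 and 3.94 in KO-WT, 2.88, 2.94, 3.04, 3.00 and 3.13 in WT-KO, and 3.28, 3.41, 3.29, 3.14 and 3.26 in KO-KO. The Lin28a-null libraries lay below the Lin28a-intact ones, and the lowest values were those of WT-KO. Wnt6 fell by 0.63 (SE 0.0971, adjusted p = 8.68e-05) with Trim71 intact and by 0.64 (adjusted p = 7.57e-05) without. Wnt5b, a ligand mostly tied to beta-catenin-independent signalling, gave 3.69, 3.64, 3.60 and 3.54 in WT-WT, 3.39, 3.48, 3.48 and 3.46 in KO-WT, 3.27, 3.41, 3.21, 3.25 and 3.24 in WT-KO, and 2.95, 2.93, 3.02, 3.02 and 3.11 in KO-KO. Only WT-KO replicate 2 reached into the KO-WT range, and the KO-KO libraries were the lowest of all. The limma differences for Wnt5b were -0.34 (SE 0.0694, adjusted p = 0.000967) and -0.45 (adjusted p = 9.34e-05).

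Wnt8a, an early embryonic ligand that activates beta-catenin, read 4.20, 4.09, 4.03 and 4.16 in WT-WT, 3.58, 3.74, 3.91 and 3.58 in KO-WT, 3.63, 3.90, 3.64, 3.57 and 3.78 in WT-KO, and 3.34, 3.28, 3.41, 3.37 and 3.35 in KO-KO. The 2 single-null groups covered nearly the same range, between WT-WT above and KO-KO below. It fell by 0.42 (SE 0.0901, adjusted p = 0.0016) after Lin28a loss with Trim71 intact and by 0.35 (adjusted p = 0.00496) without Trim71. Wnt3, the ligand needed for the primitive streak, averaged 3.58 ± 0.0602 (SD, n = 4) in WT-WT and 3.16 ± 0.18 (n = 5) in WT-KO and fell by 0.41 (adjusted p = 0.00475) and by 0.39 (adjusted p = 0.00651) in the 2 Trim71 states. Wnt5a fell by 0.26 (adjusted p = 0.0316) without Trim71. With Trim71 intact its difference was 0.06 (adjusted p = 0.603).

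The exception among ligands was Wnt3a, a classical activator of beta-catenin, which averaged 3.44 ± 0.118 (SD, n = 4) in WT-WT and 3.80 ± 0.188 (n = 5) in WT-KO. It rose by 0.36 in both Trim71 states (SE 0.109, adjusted p = 0.0144 and 0.0134). Wnt3a and Wnt9a are neighbouring protein-coding genes in RefSeq's order of the chromosome, and they changed in opposite directions. Both carry a let-7 seed match printed above. Porcn, which lipid-modifies Wnts, rose by 0.43 in both Trim71 states (SE 0.14, adjusted p = 0.0212 and 0.0207), from a mean of 6.75 in WT-WT.

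**Figure D2:**
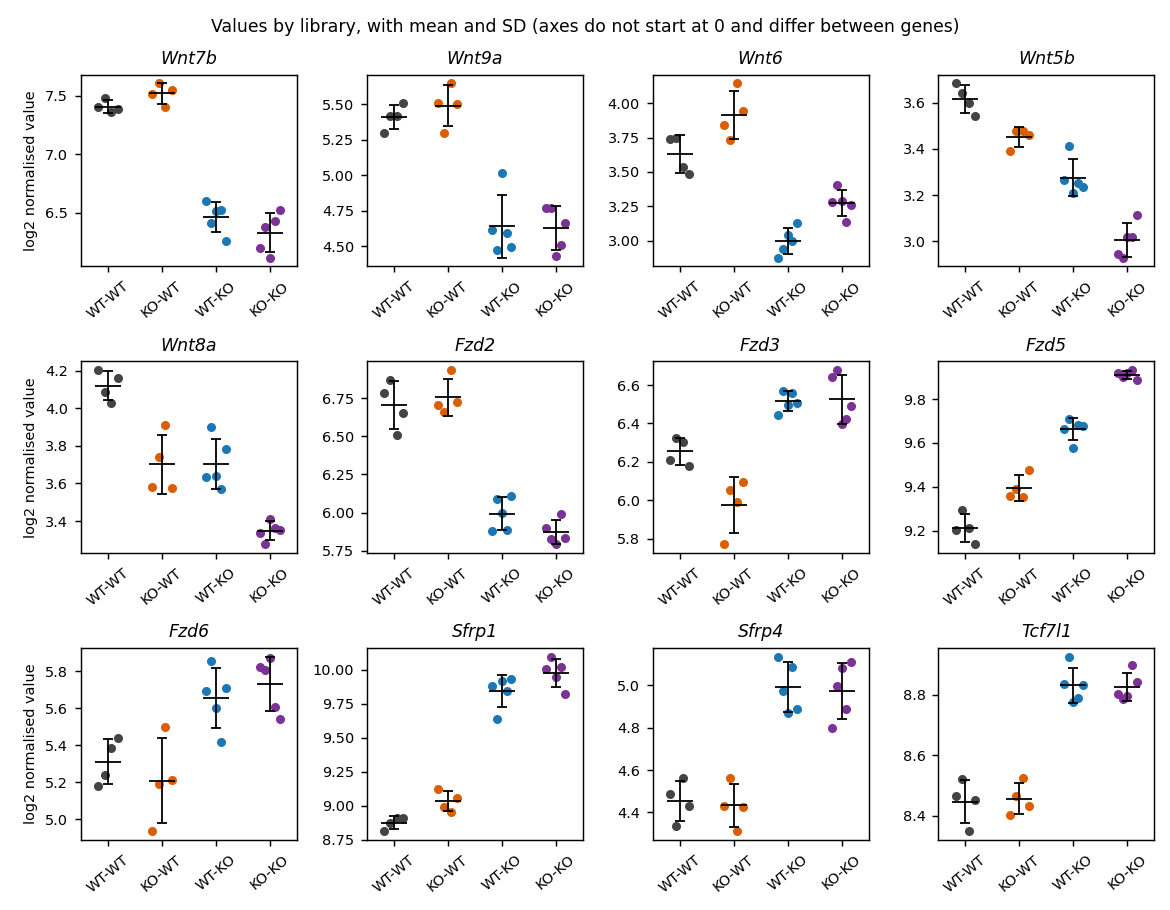
Each panel is 1 member, with log2 normalised values on the y axis and genotype on the x axis; points are libraries and the black bar and whiskers are mean and SD. The axes differ between panels and do not start at 0. Sfrp1, Sfrp4, Fzd5 and Tcf7l1 were higher and Wnt7b, Wnt9a, Wnt6 and Fzd2 lower in both Lin28a-null groups.

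Frizzled genes encode the receptors, and all 10 in the table were tested. On a scale per kilobase of the longest coding transcript, the WT-WT level was highest for Fzd7 (6.80 log2 units) and Fzd5 (6.42), then Fzd2 (4.83), Fzd10 (4.24) and Fzd9 (4.04). Fzd6 (3.20), Fzd3 (2.58), Fzd4 (2.19), Fzd1 (2.17) and Fzd8 (1.50) followed. Fzd7 is the receptor best known in embryonic stem cells. Fzd4 and Fzd1 lay closer together than the SD of Fzd1 between WT-WT libraries (0.145), so their order is not resolved. That SD does not cover the error from the transcript length used. The rest of the order is therefore not shown to be resolved either.

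Fzd5 had log2 values of 9.20, 9.29, 9.21 and 9.14 in WT-WT, 9.36, 9.39, 9.35 and 9.48 in KO-WT, 9.66, 9.71, 9.58, 9.68 and 9.68 in WT-KO, and 9.92, 9.90, 9.92, 9.93 and 9.89 in KO-KO. The 4 groups did not overlap, with means increasing in that order. After Lin28a loss Fzd5 rose by 0.45 (SE 0.0449, adjusted p = 1.04e-06) with Trim71 intact and by 0.52 (adjusted p = 2.31e-07) without. Fzd7 averaged 8.98 ± 0.0458 (SD, n = 4) with both genes intact and 9.20 ± 0.0243 (n = 4) in KO-WT. It averaged 8.84 ± 0.0813 (n = 5) in WT-KO, against 8.73 ± 0.0978 (n = 5) in KO-KO. It fell by 0.46 after Lin28a loss without Trim71 (SE 0.0573, adjusted p = 1.01e-05); with Trim71 intact the difference was -0.14 (adjusted p = 0.0557). Before division by length, the mean of Fzd5 was above that of Fzd7 in all 4 groups. The order of the 2 receptors per kilobase differed between groups, and it depends on the transcript lengths used (6915 bases for Fzd5, 4532 for Fzd7). Fzd5 minus Fzd7 was -0.38 ± 0.0342 in WT-WT and -0.41 ± 0.0399 in KO-WT (SD, n = 4 each), but 0.21 ± 0.0972 in WT-KO and 0.57 ± 0.102 in KO-KO (n = 5 each). That sign was the same in every library of a group, and this comparison was chosen after the values were seen and carries no test.

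Fzd2 moved the other way from Fzd5. Its values were 6.78, 6.87, 6.51 and 6.65 in WT-WT, 6.70, 6.66, 6.93 and 6.73 in KO-WT, 5.88, 6.09, 6.00, 5.89 and 6.11 in WT-KO, and 5.90, 5.83, 5.79, 5.99 and 5.83 in KO-KO. No Lin28a-null library reached a Lin28a-intact one, and Fzd2 fell by 0.71 (SE 0.0905, adjusted p = 1.32e-05) with Trim71 intact and by 0.89 (adjusted p = 1.38e-06) without. Fzd3, a receptor linked to planar cell polarity, read 6.21, 6.32, 6.30 and 6.18 in WT-WT, 5.77, 6.05, 5.99 and 6.09 in KO-WT, 6.44, 6.57, 6.50, 6.56 and 6.51 in WT-KO, and 6.64, 6.68, 6.40, 6.42 and 6.49 in KO-KO. All Lin28a-null libraries were above the intact ones, and KO-WT was the lowest group. The Fzd3 difference was 0.26 (SE 0.0841, adjusted p = 0.0197) with Trim71 intact and 0.55 (adjusted p = 8.06e-05) without; the difference between these 2 effects was 0.29 and did not pass (limma interaction, adjusted p = 0.293). With a GC and length trend removed the 2 effects were 0.33 and 0.35 and the difference between them 0.011, beside a rank correlation of -0.51 across genes between GC content and the interaction.

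Fzd6 gave 5.18, 5.24, 5.39 and 5.44 in WT-WT, 4.94, 5.19, 5.50 and 5.21 in KO-WT, 5.69, 5.85, 5.60, 5.42 and 5.71 in WT-KO, and 5.82, 5.81, 5.87, 5.61 and 5.54 in KO-KO. WT-KO replicate 4 fell inside the WT-WT range and the remaining WT-KO libraries lay above it. Fzd6 rose by 0.34 (SE 0.12, adjusted p = 0.03) with Trim71 intact and by 0.52 (adjusted p = 0.00244) without. Fzd10 rose by 0.34 (adjusted p = 0.00329) and 0.42 (adjusted p = 0.000596), and Fzd4, the receptor known for retinal vessel growth, by 0.39 (adjusted p = 0.00064) and 0.35 (adjusted p = 0.00143). Fzd1, Fzd8 and Fzd9 passed in none of the 6 comparisons. The co-receptor Lrp6 rose by 0.28 (adjusted p = 0.00969) and 0.47 (adjusted p = 0.000207), while Lrp5 rose by 0.20 (adjusted p = 0.00915) with Trim71 intact and differed by 0.06 (adjusted p = 0.38) without. The Lrp5 call was lost with the GC and length trend removed (0.11, adjusted p = 0.102) and with clones E3 and C1 alone (adjusted p = 0.133). Fzd3, Fzd4, Fzd6, Fzd10 and Lrp6 also lost their limma calls with Trim71 intact in E3 and C1 (adjusted p 0.0558 to 0.281). Without Trim71 their differences in clones 1 and 1-4, with 1 KO-WT library, were 0.45, 0.27, 0.47, 0.20 and 0.39.

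**Figure D3:**
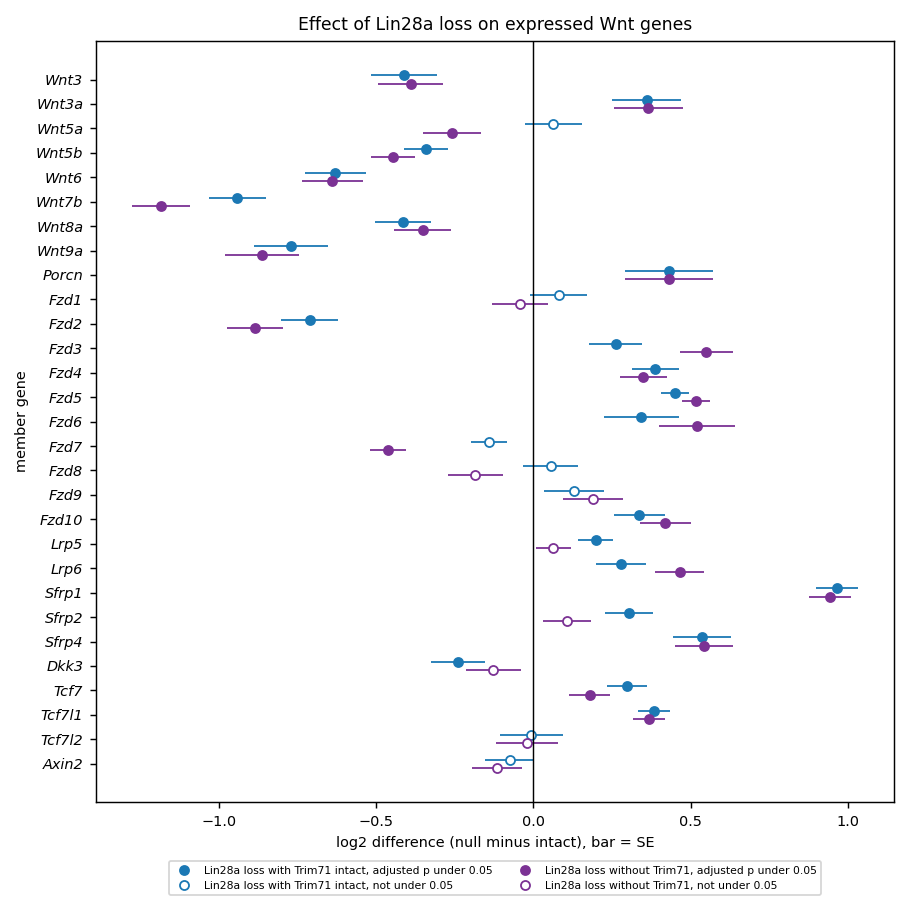
For each expressed member the x axis gives the log2 difference for Lin28a loss (null minus intact) with its SE, in blue with Trim71 intact and in purple without Trim71; filled points have an adjusted p under 0.05. Filled points in both colours lie on the same side of 0 for all 19 members that have them. The matching count over all genes was not made.

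The secreted inhibitor Sfrp1 showed the largest rise of any tested member in these comparisons. It read 8.81, 8.87, 8.91 and 8.91 in WT-WT, 9.12, 8.99, 8.95 and 9.06 in KO-WT, 9.88, 9.64, 9.91, 9.85 and 9.93 in WT-KO, and 10.002, 10.09, 9.95, 10.02 and 9.82 in KO-KO. Each Lin28a-null library was above each Lin28a-intact one, by 0.97 on average with Trim71 intact (SE 0.0677, adjusted p = 1.85e-08) and by 0.94 without (adjusted p = 2.43e-08). Sfrp4, of the same family but far lower, had 4.49, 4.34, 4.56 and 4.43 in WT-WT, 4.43, 4.56, 4.31 and 4.43 in KO-WT, 5.13, 4.97, 4.87, 5.09 and 4.89 in WT-KO, and 4.80, 4.99, 5.08, 4.89 and 5.11 in KO-KO. Its Lin28a-null libraries also lay above all intact ones, and it rose by 0.54 in both Trim71 states (SE 0.0923, adjusted p = 0.000238 and 0.000214). Sfrp2 rose by 0.30 (adjusted p = 0.00458) with Trim71 intact and differed by 0.11 (adjusted p = 0.275) without. Dkk3, which is related to Dkk1 in sequence, fell by 0.24 (adjusted p = 0.0334) with Trim71 intact, and its difference was -0.13 (adjusted p = 0.25) without.

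Of the transcription factors, Tcf7l1 averaged 8.45 ± 0.0725 (SD, n = 4) with both genes intact and 8.46 ± 0.0517 (n = 4) in KO-WT. Its mean was 8.83 in either Lin28a-null group, ± 0.0582 for WT-KO and ± 0.0465 for KO-KO (n = 5 each). It rose by 0.38 (SE 0.0509, adjusted p = 2.03e-05) and 0.37 (adjusted p = 3.08e-05), and the Lin28a-null and Lin28a-intact libraries did not overlap. Tcf7, usually an activator, rose by 0.30 (adjusted p = 0.00145) with Trim71 intact and by 0.18 (adjusted p = 0.0334) without, while Tcf7l2 differed by -0.01 and -0.02 (adjusted p = 0.965 and 0.885). Axin2, the feedback gene most often read as a sign of beta-catenin activity, differed by -0.08 (adjusted p = 0.462) and -0.12 (adjusted p = 0.253). Of the 6 tested members with a let-7 seed match, Fzd3, Fzd4, Tcf7l1 and Wnt3a rose in both Trim71 states, Wnt9a fell in both, and Dkk3 fell with Trim71 intact. Over all 29 tested members, 19 were called in both states, so calls were common with or without a match. Whether a match goes with the change was not tested.

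The clone sets were fitted apart as well. Clones 1 and 1-4 were harvested on days 1 and 5, and clones E3 and C1 on days 2, 3 and 4. Clone set and harvest day therefore cannot be told apart. Day means had been removed over all libraries together, so the 2 fits are not independent. The members compared were called in the fit of all these libraries, so their agreement of sign is largely fixed by that choice. That agreement was not counted over all genes called. All 22 members called with Trim71 intact kept their sign in both clone sets, but not their calls: 10 of them were called when the fit held just E3 and C1, and 17 when it held just 1 and 1-4, where Fzd7 was called in addition. Sfrp1 differed by 0.91 and 1.04 in the 2 sets, Wnt7b by -0.94 and -0.96, Fzd2 by -0.70 and -0.72, and Fzd5 by 0.40 and 0.50, each with an adjusted p under 0.05 in both. Some smaller calls rested on single libraries. With Trim71 intact, Fzd6 was lost without WT-WT replicate 1 or 2 or WT-KO replicate 1, 2 or 5 (adjusted p from 0.058 to 0.116). Dkk3 was lost without WT-WT replicate 1 or 4 or WT-KO replicate 1, 2 or 5 (0.0565 to 0.14), Porcn without WT-WT replicate 4 or WT-KO replicate 1 or 5 (0.0585 to 0.0866), Fzd3 without WT-WT replicate 1 or 4 (0.0644 and 0.072), and Wnt3a without WT-WT replicate 2 or WT-KO replicate 3 (0.0728 and 0.0507). Without Trim71, Tcf7 was lost without KO-WT replicate 3 or 4 or KO-KO replicate 1, 2, 4 or 5 (0.0554 to 0.141), Wnt5a without KO-WT replicate 1, 2 or 4 or KO-KO replicate 2, 3 or 4 (0.0602 to 0.131), Porcn without KO-WT replicate 1 or 2 or KO-KO replicate 3 (0.0667 to 0.111), and Wnt3a without KO-WT replicate 1 (0.0739).

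Markers of other cell types moved with Lin28a loss as well. The 10 primitive endoderm markers summed to between 8844 and 9808 normalised units in WT-WT and between 3779 and 4646 in WT-KO, and all 8 tested were lower with Trim71 intact (median difference -1.43). Gata4 averaged 6.44 in WT-WT and 4.84 in WT-KO, and Foxa2 was the 1 marker of the 10 below the minimum in every library. The 9 trophectoderm markers summed to between 4542 and 6036 units in WT-WT and between 1111 and 1343 in WT-KO, with 5 of 7 tested lower. Hand1 averaged 6.64 in WT-WT and 3.76 in WT-KO and Gata3 5.60 and 4.13, while Eomes averaged 5.30 and 5.43; Cdx2 and Elf5 were below the minimum in every library. Of 10 fibroblast markers 5 were in the table, with summed levels of 129 to 153 units in WT-WT and 93.3 to 103 in WT-KO, and 2 of the 4 tested were lower (median -0.51). Summed levels of the neural markers were 489 to 620 units in WT-WT and 644 to 826 in WT-KO. Of the 5 tested, 3 were called higher and 1 lower. Tubb3 was the largest part of that sum, and Nes was the gene called lower. Of all genes, 20.3% were called higher and 22.0% lower in this comparison. Fewer cells of a type and less RNA per cell cannot be told apart in such bulk samples, and the part of these cells in the Wnt gene differences was not tested.

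The rest of the pathway was read from 5 lists, all with Lin28a loss given first with Trim71 intact and then without. Of 19 tested genes for Wnt secretion, receptor partners and receptor turnover (27 listed), 4 rose and 5 fell (47.4% called, beside 42.4% of all genes), and then 6 rose and 5 fell (57.9%, beside 42.8%). Wls, the Wnt carrier, fell by 1.53 (SE 0.115, adjusted p = 4.38e-08) and by 1.31 (adjusted p = 2.61e-07). Adgra2, which forms a receptor complex for Wnt7 ligands with Reck, fell by 1.54 (SE 0.0885, adjusted p = 1.96e-09) and by 1.28 (adjusted p = 1.57e-08). Kremen1, a receptor for Dkk proteins, fell by 0.68 and 0.62, while Notum, which removes the lipid from Wnts, rose by 1.13 (SE 0.123, adjusted p = 2.48e-06) and 1.01 (adjusted p = 8.32e-06). The medians of this list were -0.0017 and 0.071.

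All 35 genes of the cytoplasmic and nuclear beta-catenin list were tested. In each Trim71 state, counted separately, 10 rose and 6 fell (45.7%, near the share of all genes), with medians of 0.018 and 0.036. The co-activator Bcl9l fell by 0.55 (adjusted p = 4.66e-05) and 0.69 (adjusted p = 5.24e-06), and the co-repressor Tle3 rose by 0.58 (adjusted p = 1.05e-08) and 0.53 (adjusted p = 3.12e-08). Of 16 tested planar cell polarity genes, 9 rose and 3 fell (12 called), and then 7 rose and 3 fell (10 called, 62.5%). Over all genes, 42.4% were called with Trim71 intact (20.3% higher, 22.0% lower) and 42.8% without it (20.8% higher, 22.0% lower). The difference between this list and all genes was not tested. Celsr2, a polarity cadherin, rose by 0.84 (adjusted p = 2.48e-06) and 0.75 (adjusted p = 8.11e-06), and Prickle1 fell by 0.79 (adjusted p = 1.1e-05) and 0.66 (adjusted p = 5.86e-05).

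Of 20 genes that Wnt signalling activates in embryonic cells, 12 were tested; the primitive streak genes T and Mixl1 were below the minimum in every library. In this list 3 rose and 4 fell (58.3%, beside 42.4% of all genes), and then 3 rose and 5 fell (66.7%, beside 42.8%). Ascl2 fell by 1.04 (adjusted p = 1.81e-06) and 1.39 (adjusted p = 7.13e-08), Cd44 by 1.00 (adjusted p = 1.05e-06) and 0.92 (adjusted p = 2.59e-06), and Nodal by 0.70 (adjusted p = 1.04e-06) and 0.73 (adjusted p = 6.69e-07). Notum and Ccnd1 were on the other side, Ccnd1 with rises of 0.45 (adjusted p = 0.00146) and 0.30 (adjusted p = 0.0208). The Wnt-activated genes thus changed in both directions.

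The last list holds 12 stem cell genes named as targets that Tcf7l1 represses; it overlaps the stem cell markers, so it is no separate evidence of a direction. All 12 rose with Trim71 intact (median 0.62) and 11 rose without Trim71 (median 0.58), in the same libraries in which Tcf7l1 itself was higher. Of all genes, 20.3% and 20.8% were called higher in these comparisons. Lefty2 rose by 1.52 (SE 0.109, adjusted p = 2.46e-08) and 1.11 (adjusted p = 8.43e-07), Nanog by 0.86 (adjusted p = 3.44e-07) and 0.97 (adjusted p = 8.44e-08), and Tcl1 by 0.81 (adjusted p = 1.07e-06) and 0.85 (adjusted p = 6.25e-07). Klf2 was the gene that did not pass without Trim71, at -0.09 (adjusted p = 0.39), and it was lower by 0.20 after loss of both (adjusted p = 0.049).

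**Figure D4:**
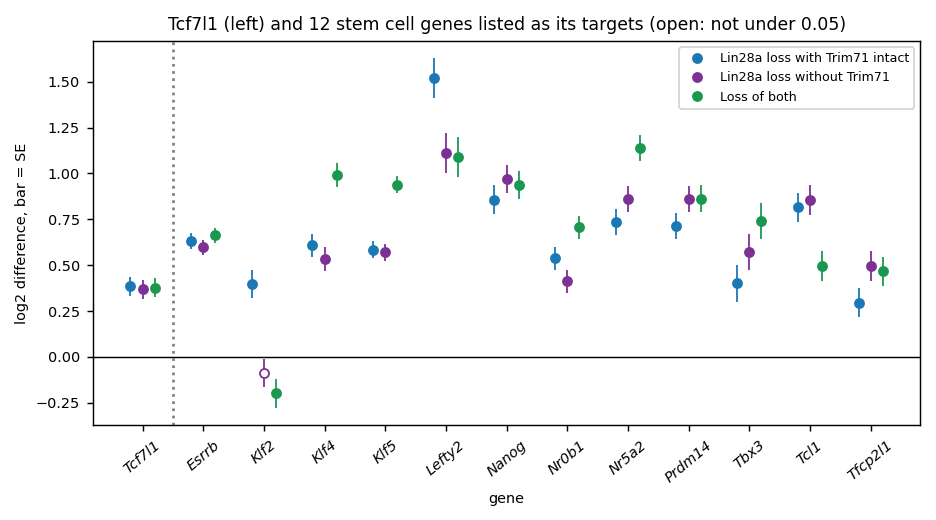
The y axis gives the log2 difference with its SE for Tcf7l1 (left of the dotted line) and for the 12 listed genes, for Lin28a loss with Trim71 intact (blue), without Trim71 (purple) and for loss of both (green). All points lie above 0 except those of Klf2 for Lin28a loss without Trim71 and for loss of both.

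Trim71 loss was compared with Lin28a intact (KO-WT against WT-WT) and without Lin28a (KO-KO against WT-KO). Fewer members changed and the changes were small: Fzd5 rose and Wnt8a fell in both Lin28a states. With Lin28a intact, 3 of 29 tested members passed, against 11.2% of all genes: Fzd5 and Fzd7 higher (4.74% of all genes) and Wnt8a lower (6.43%). Without Lin28a 6 passed, against 8.38% of all genes: Fzd5 higher (4.26% of all) and Axin2, Sfrp2, Wnt5a, Wnt5b and Wnt8a lower (4.12%). Median differences were 0.0096 and -0.018 for the members and -0.0046 and -0.0093 for all genes.

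Fzd5, whose values are given above, rose by 0.18 (SE 0.0485, adjusted p = 0.0266) and 0.25 (SE 0.0415, adjusted p = 0.00161), and it was higher in 3 of 3 and 5 of 5 same-day pairs. Wnt8a fell by 0.42 (SE 0.0974, adjusted p = 0.0162) and 0.36 (SE 0.0834, adjusted p = 0.0152), lower in 3 of 3 and 5 of 5 pairs. For Fzd5 and Wnt8a the groups compared did not overlap, so the pair counts were fixed by that and add no support. Both genes thus moved in the same direction after loss of either protein. Fzd7 rose by 0.21 with Lin28a intact (SE 0.0619, adjusted p = 0.038), and without Lin28a its difference was -0.11 (adjusted p = 0.248). Among the genes called without Lin28a, Axin2 fell by 0.28 (SE 0.0729, adjusted p = 0.0272), from a mean of 6.88 ± 0.105 to 6.60 ± 0.125 (SD, n = 5 each). Its difference with Lin28a intact was -0.24 (adjusted p = 0.0772), from 6.96 ± 0.0326 to 6.72 ± 0.0922 (n = 4 each). Sfrp2 fell by 0.35 (adjusted p = 0.00581), Wnt5a by 0.31 (adjusted p = 0.0354) and Wnt5b by 0.27 (adjusted p = 0.0163); with Lin28a intact these 3 differed by -0.16, 0.02 and -0.16. Tcf7l1 differed by 0.01 and -0.01 and Sfrp1 by 0.16 and 0.13, none of which passed.

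These calls depended on single libraries more than those of Lin28a loss. With Lin28a intact no member was called without WT-WT replicate 4 (Fzd5 adjusted p = 0.11, Wnt8a 0.0582) or without KO-WT replicate 4 (0.0931 and 0.053), and the count was also 0 when only the 2 genotypes were fitted. Fzd5 was further lost without WT-WT replicate 3 (0.0696) or KO-WT replicate 2 (0.0604). Fzd7 was lost without any 1 of the 8 libraries compared and without KO-KO replicate 1 or 2 (0.0502 to 0.12). Without Lin28a, leaving out KO-KO replicate 1 or 2 brought the 6 calls to 3. Axin2 was lost without WT-KO replicate 2, 3 or 4 or KO-KO replicate 1, 3 or 4 (0.0527 to 0.0799), and Wnt5a without WT-KO replicate 2, 3, 4 or 5 or KO-KO replicate 1, 2, 3 or 4 (0.0508 to 0.116). Wnt5b was lost without KO-KO replicate 1 or 2 (0.061 and 0.0614), and Wnt8a without WT-KO replicate 5 or KO-KO replicate 2 (0.05004 and 0.0563). Within the clone sets E3 with C1 and 1 with 1-4, Fzd5 differed by 0.11 and 0.32 with Lin28a intact. The second set held 1 KO-WT library, so with Lin28a intact a p-value is given only for E3 with C1 (limma adjusted p = 0.462). Without Lin28a, Fzd5 differed by 0.26 and 0.23 (0.0811 and 0.0548). Wnt8a differed by -0.31 and -0.63 with Lin28a intact (0.284 in E3 with C1). Without Lin28a it differed by -0.35 and -0.36 (0.23 and 0.171), and it passed in neither clone set. Across genes, GC content and the difference for Trim71 loss with Lin28a intact had a rank correlation of 0.51; with a GC and length trend removed, Fzd5 and Wnt8a kept their calls and Fzd7 did not (adjusted p = 0.091). Axin2 and Wnt5b then also passed with Lin28a intact, both at -0.29 (adjusted p = 0.0372 and 0.035).

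**Figure D5:**
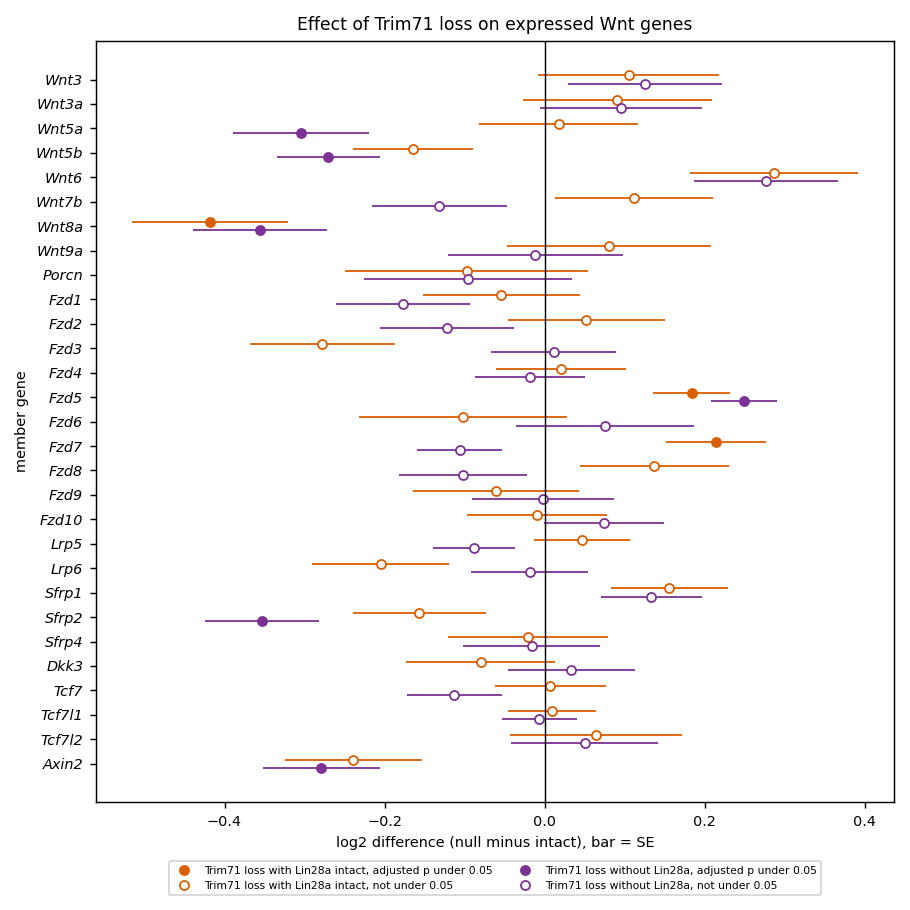
The x axis gives the log2 difference for Trim71 loss (null minus intact) with its SE for each expressed member, in orange with Lin28a intact and in purple without Lin28a; filled points have an adjusted p under 0.05. Most points lie within 0.2 of 0, with Fzd5 filled to the right and Wnt8a to the left in both colours.

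The same lists are given for Trim71 loss with Lin28a intact and then without it, where 11.2% and 8.38% of all genes were called. Of the 19 secretion and receptor partner genes 2 rose and 1 fell, and then 1 rose and 2 fell (15.8% each). In the beta-catenin list 1 rose and 3 fell (11.4%), and then 1 rose and 2 fell (8.57%), of 35, and in the polarity list 1 rose and 2 fell (18.8%), and then 1 rose and 1 fell (12.5%), of 16. None of the 12 tested Wnt-activated genes passed in limma in either state, with 2 at an unadjusted p under 0.05 in each. Of the 12 listed Tcf7l1 targets 4 rose and 1 fell (41.7%), and then 4 rose and 3 fell (58.3%), a larger share than in the other lists, in both directions; the difference between lists was not tested. The glypican Gpc3, a surface proteoglycan, fell by 0.47 without Lin28a (adjusted p = 0.00705), and with Lin28a intact its difference was -0.32 (adjusted p = 0.074).

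Loss of both proteins was read as KO-KO against WT-WT, which shares its libraries with the comparisons above. Of the 29 tested members 21 passed, against 45.6% of all genes, 11 higher (21.0% of all) and 10 lower (24.6%), with a median of 0.043 against -0.019 over all genes. Fzd5 was higher by 0.70 (SE 0.0449, adjusted p = 6.82e-09) and Sfrp1 by 1.10 (adjusted p = 4.68e-09). Wnt8a was lower by 0.77 (adjusted p = 5.04e-06), Wnt5b by 0.61 (adjusted p = 3.7e-06), Wnt7b by 1.07 (adjusted p = 1.48e-07) and Axin2 by 0.35 (adjusted p = 0.0018). In the interaction, which asks whether the Trim71 effect depends on Lin28a, limma called none of the 29 members and 0.0200% of all genes, while 3 members had an unadjusted p under 0.05, beside 15.1% of all genes. Fzd7 came nearest, at -0.32 ± 0.0815 (SE, adjusted p = 0.182), and Wnt5a stood at -0.32 (adjusted p = 0.287). Calls made in 1 Lin28a or Trim71 state alone are therefore not shown to differ between states.

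The 11 members below the minimum were Dkk1, Lgr5, Sfrp5, Sp5, Wnt2b, Wnt4, Wnt7a, Wnt10a, Wnt10b, Wnt11 and Wnt16. Among them Wnt7a reached the highest value, 3.35 in 1 library. In a fit without the minimum, Dkk1 differed after Lin28a loss by -0.90 (adjusted p = 6.87e-07) with Trim71 intact and by -0.97 (adjusted p = 2.71e-07) without. Wnt7a differed by -0.83 (adjusted p = 9.26e-06) and -0.97 (adjusted p = 1.84e-06), and Wnt4 by -0.55 (adjusted p = 2.67e-05) and -0.63 (adjusted p = 5.94e-06). Dkk1 is the best known secreted blocker of Lrp5 and Lrp6, and at values this low a log2 difference rests on few reads. Sp5, a direct beta-catenin target, differed by -0.02 and -0.07, neither of which passed.

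The core letters of the TCF site, CTTTGA on either strand, were counted in RefSeq promoter windows of GRCm38.p6 from 250 bases before to 50 after the start. Among 16 tested members with 20 windows, 2 windows held it, 1 each of Fzd1 and Wnt5b, beside 11.6% of 13409 windows of all tested genes. Of the untested members Sp5 and Dkk1 had 2 matches each. A match is a description of the letters, and most windows of these genes had none.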

How the data were processed

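The table holds log2 normalised values deposited by the authors for 21685 genes in 19 libraries. Per the submitters' processing notes CASAVA 1.8, STAR and DESeq2 were used; the genome build, annotation, counting and normalisation steps are not given in the sources used here, nor is read depth. Values lay between -0.71 and 16.30, with 4126 of 412015 below 0, and library sums on the linear scale lay between 7297919 and 7677445. Day means had already been removed from the deposited values (largest remaining day term 1.7e-08). The labels pair libraries by harvest day (5 days used), so a day term was kept to charge the lost degrees of freedom.

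Values were fitted with limma 3.58.1 in R 4.3.3 (genotype plus day, 18 libraries, 10 residual degrees of freedom, trended variance) over 14988 genes; p-values were adjusted by Benjamini-Hochberg over all tested genes and called under 0.05. The fit was tested on simulated data. Members called with a difference of at least 0.5 were given in every library; genes outside the members were named from each list by size, up to 3 per direction. Members, lists and tests were chosen with earlier results of these data known. Klf2 and Axin2 were singled out after their values were seen. Alternatives tried were another scaling, filters, no day term, each clone set, only the genotypes compared, GC and length correction, and leaving out each library.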

Additional observations from a re-analysis of the deposited data

Results flagged for a closer look

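In 6 of 116 groups of libraries looked at, 1 library stood apart from the others of its genotype by Dixon's criterion at the 95% level; chance gives about 5%. Wnt9a read 5.02 in WT-KO replicate 3, with the other 4 libraries between 4.48 and 4.62, and Wnt5b read 3.41 in WT-KO replicate 2, with the others between 3.21 and 3.27. Both isolated values lay toward the Lin28a-intact level of their gene. Fzd1 read 4.52 in WT-KO replicate 3, with the others between 4.24 and 4.31. Porcn read 7.45 in KO-KO replicate 3, above 6.92 to 7.06 in the others, and Tcf7 read 9.47 in the same library, below 9.66 to 9.69. Sfrp2 read 5.40 in KO-KO replicate 5, above 5.16 to 5.18 in the others.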

How the results depend on the processing

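No member call reversed: over 73 called member results and all settings run, 1693 of 1862 values kept direction and call, 169 lost the call, and 29 results kept it under every setting. These settings reuse the same libraries, and 18 of them leave out 1 library each, some from a genotype outside the comparison. The kept share is therefore no independent check of the calls. Without the day term (no replicate block), calls among members went from 3 to 8 for Trim71 loss with Lin28a intact and from 0 to 1 for the interaction (Fzd7). Under the stricter minimum, a mean of 50 units, which tests 14 members, calls were 2 for Trim71 loss without Lin28a (6 reported) and 11 in each of the 2 Lin28a comparisons and in loss of both (22, 21 and 21 reported). With clones E3 and C1 alone they were 0, 1, 10 and 12 for Trim71 loss with Lin28a intact, Trim71 loss without Lin28a, Lin28a loss with Trim71 intact and loss of both. With clones 1 and 1-4 alone, where KO-WT has 1 library that is assumed to vary like the other groups, they were 1 and 0 for the 2 Trim71 comparisons and 11 for Lin28a loss without Trim71. Fitting only the 2 genotypes compared gave 0 and 3 for the 2 Trim71 comparisons. Leaving out each library gave 0 to 3 and 3 to 7 calls for Trim71 loss with and without Lin28a, 19 to 23 and 18 to 21 for Lin28a loss with and without Trim71, 18 to 23 for loss of both and 0 to 0 for the interaction. Over all genes, the calls for Trim71 loss with Lin28a intact were 1674 as reported, 4219 without the day term and 30 with only the 2 genotypes. Scaling to a common 75th percentile moved the median of all genes by at most 0.0193. Read depth is unknown, so the counting error of members near 10 units could not be given.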
